A study of Homo sapiens with 12 samples.

Results

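The endoplasmic reticulum (ER) is the site where secreted and membrane proteins are inserted, folded and checked. The 39 genes described here encode parts of that machinery and were chosen by function from a fixed list of names. They fall into 5 functional groups, which are chaperones and their cofactors, disulfide enzymes, stress sensors with the transcription factor XBP1, ER-associated degradation, and the translocon. A probe naming 1 gene was found for 37 of the 39 genes, and none for HERPUD1 and SEC61G. The probes for PDIA3, ERN1 and DERL3 were detected on 0 arrays and give no level. The other 34 genes were measured, among 10469 measured genes of 18852 named by a probe. The measured genes comprise 12 of 12 chaperones and cofactors, 4 of 5 disulfide enzymes, 3 of 4 sensors and factors, 7 of 9 degradation genes and 8 of 9 translocon genes.

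Expression was profiled on 12 Illumina HumanHT-12 arrays of AGS, a human gastric adenocarcinoma cell line. The drug was mycophenolic acid (MPA), an immunosuppressant that inhibits IMP dehydrogenase and so the synthesis of guanine nucleotides, given at 2 µg/ml. Untreated cells (0 h) were hybridised to 4 arrays, and each of the treatment times 12, 24, 48 and 72 h to 2. All values come from this 1 cell line, and the untreated cells have no later time, so MPA and time in culture cannot be told apart. The labels do not say that replicates came from separate cultures, and the p-values then measure the spread between these arrays, which may be technical.

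Between 14077 and 15764 probes were detected per array, and the 95th percentile of signal was 22.3 to 36.9 times the 5th, which with 2 arrays per treated group limits the precision. The SD of log2 differences was 0.252 to 0.318 between arrays of 1 group and 0.35 to 0.712 between arrays of different groups. Of 6 epithelial markers, KRT8, KRT19, EPCAM and CDH1 were detected on 12 of 12 arrays, CLDN4 on 5 and KRT18 on 0. Of 12 markers of leukocytes, endothelium and fibroblasts, 9 were detected on 0 arrays, CD68 on 12, COL1A1 on 7 and PECAM1 on 3. CDH1 was 0.46 higher in the mean of the 4 times (log2, SE 0.09, adjusted p = 0.0011). CD68 was 0.56 higher in the mean of the 4 times (log2, SE 0.09, adjusted p = 0.00015) and COL1A1 was lower (log2 fold change -1.13, SE 0.11, adjusted p = 2.7e-06). Their part in the results was not tested.

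Unfolded proteins in the ER lumen are sensed by 3 membrane proteins, EIF2AK3 (PERK), ATF6 and ERN1 (IRE1), in what is called the unfolded protein response. HSPA5 (BiP, GRP78), the main ER Hsp70 chaperone, binds these sensors when the folding load is low. Activated ATF6 is cut to a transcription factor, and activated ERN1 splices the XBP1 mRNA so that it encodes one. Both act on promoters of chaperone and degradation genes, many of which carry the ER stress response element (ERSE), bound together with the CCAAT-binding factor NF-Y. Activated EIF2AK3 lowers translation and raises the factors ATF4 and DDIT3 (CHOP). The arrays measure mRNA, and neither XBP1 splicing nor cleavage of ATF6 was measured.

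Promoter windows from RefSeq (GRCh38.p14, 250 bases before to 50 after the start) were matched for 36 of the 39 genes. The exact ERSE, which is CCAAT, then 9 bases of any kind, then CCACG, on either strand, was in the windows of 7 of these 36 genes (19.4%), against 25 of 27305 genes with a window (0.0916%). These 7 were HSPA5, HSP90B1, CALR, CANX, CRELD2, PDIA6 and XBP1. The related ERSE-II, which is ATTGG, 1 base of any kind and CCACG on either strand, was in 3 windows (8.33%, against 0.0696% of all genes), those of HYOU1, SDF2L1 and HERPUD1. The XBP1-type element TGACGTGG was in 4 windows (11.1%, against 0.927% of all genes), of HYOU1, DNAJC10, SSR3 and SSR4, and in HYOU1 it overlaps the ERSE-II. The element TGATGCAA, read by ATF4 with its partners, was in 1 window, that of HERPUD1 (1.08% of all genes). With up to 1 mismatch in its 10 fixed letters the ERSE was in 13 of 36 windows (36.1%) and in 517 of all genes (1.89%). A match is a description of the letters and not evidence of a bound site. The elements were picked because such genes are known to carry them, so their larger shares here are no test.

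The HSPA5 promoter is shown first because HSPA5 had the largest change among the 34 measured genes. It is 110 bases, at chr9:125241364-125241473 on the minus strand, -130 to -21 from the start, with its 2 CCAAT and 1 CCACG in capitals.
HSPA5: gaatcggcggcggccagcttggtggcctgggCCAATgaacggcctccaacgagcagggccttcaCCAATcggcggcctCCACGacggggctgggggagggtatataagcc

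The exact elements of the measured genes follow with 5 flanking bases on each side, the conserved letters in capitals, each read along its gene's strand. They let the shared letters be compared with the fold changes described further on. A capital CGTGG with a following ATTGG is the same ERSE read on the other strand.
HSPA5 (chr9:125241386-125241414, minus): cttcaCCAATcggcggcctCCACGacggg
HSP90B1 (chr12:103930211-103930239, plus): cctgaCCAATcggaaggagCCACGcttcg
HSP90B1 (chr12:103930316-103930344, plus): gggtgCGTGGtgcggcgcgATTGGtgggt
CALR (chr19:12938379-12938407, plus): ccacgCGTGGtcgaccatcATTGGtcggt
CANX (chr5:179698773-179698801, plus): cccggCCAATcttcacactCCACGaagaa
CRELD2 (chr22:49918549-49918577, plus): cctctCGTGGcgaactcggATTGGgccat
PDIA6 (chr2:10812848-10812876, minus): ccggaCCAATgagccgcagCCACGgcttg
XBP1 (chr22:28800598-28800626, minus): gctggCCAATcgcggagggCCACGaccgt
HYOU1, ERSE-II (chr11:119057375-119057395, minus): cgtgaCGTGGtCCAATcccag
HYOU1, ERSE-II (chr11:119057269-119057289, minus): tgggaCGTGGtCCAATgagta
SDF2L1, ERSE-II (chr22:21642109-21642129, plus): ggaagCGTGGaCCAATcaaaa

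Across the 34 measured genes, more fell than rose after MPA. All values that follow are quantile normalized log2 intensities or differences of them, an array-relative scale, so that less RNA of a gene and more of the rest cannot be told apart, and levels of different genes are not compared. At 12 h 2 rose, 6 fell and 26 did not pass the test (limma, adjusted p under 0.05 over all genes), where 34.3% of all measured genes passed (16.4% higher, 17.9% lower). At 24 h 3 rose and 13 fell, with 41.6% of all genes called (20.4% higher, 21.3% lower). The split was 2 to 16 at 48 h (43.5% of all genes called, 20.7% higher, 22.8% lower). It was 4 to 16 at 72 h (42.3%, 21% and 21.4%). The median log2 fold change of the 34 was 0.04, -0.21, -0.41 and -0.42 at 12, 24, 48 and 72 h, against -0.01, -0.03, -0.04 and -0.02 over all genes. Median scaling, which sets only the median of each array equal, shifted the median of all genes by 0.01, -0.14, -0.31 and -0.32. The calls among the 34 then split 0 to 5, 0 to 13, 0 to 20 and 0 to 19 (higher to lower). These counts include that shift, and the share of all genes called under this setting is not given here. P4HB, for example, was called lower at 48 h (-0.54, adjusted p = 0.022), which is -0.23 relative to the median of all genes.

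In 8 of the 34 genes (23.5%) each of the 8 treated arrays lay below every 0 h array, where 10.8% of all measured genes did so. They were HSPA5, CANX, DNAJB11, SDF2L1, CRELD2, MANF, XBP1 and SEL1L. HSPA5, DNAJB11, SDF2L1, MANF and XBP1 passed the test as lower at each of the 4 times (14.7%, against 6.91% of all genes). A 2-fold or larger fall at any time was called for 10 of the 34 (29.4%, against 7.6% of all genes), and a 2-fold or larger rise for 0, against 8.88% of all genes. Another 10 genes (29.4%, against 31.3%) passed the test at no time. These were P4HB, DNAJC10, EIF2AK3, SYVN1, EDEM1, EDEM2, EDEM3, SEC61B, SSR3 and SSR4, of which 4 belong to the degradation group and 3 to the translocon.

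Between times of treatment fewer genes were called. From 12 to 24 h 0 of the 34 rose and 4 fell, where 6.91% of all genes were called (4.59% higher, 2.31% lower). From 24 to 48 h 1 rose, HSPA5, and 2 fell (11.1% of all genes, 4.52% and 6.54%), and from 24 to 72 h 2 rose, HSPA5 and EDEM2, and 4 fell (20.1%, 9.6% and 10.5%). Leaving out 1 array took these counts to between 0 and 4, 1 and 4, and 2 and 6. The shares of all genes called with 1 array left out are not given here.

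**Figure D1:**
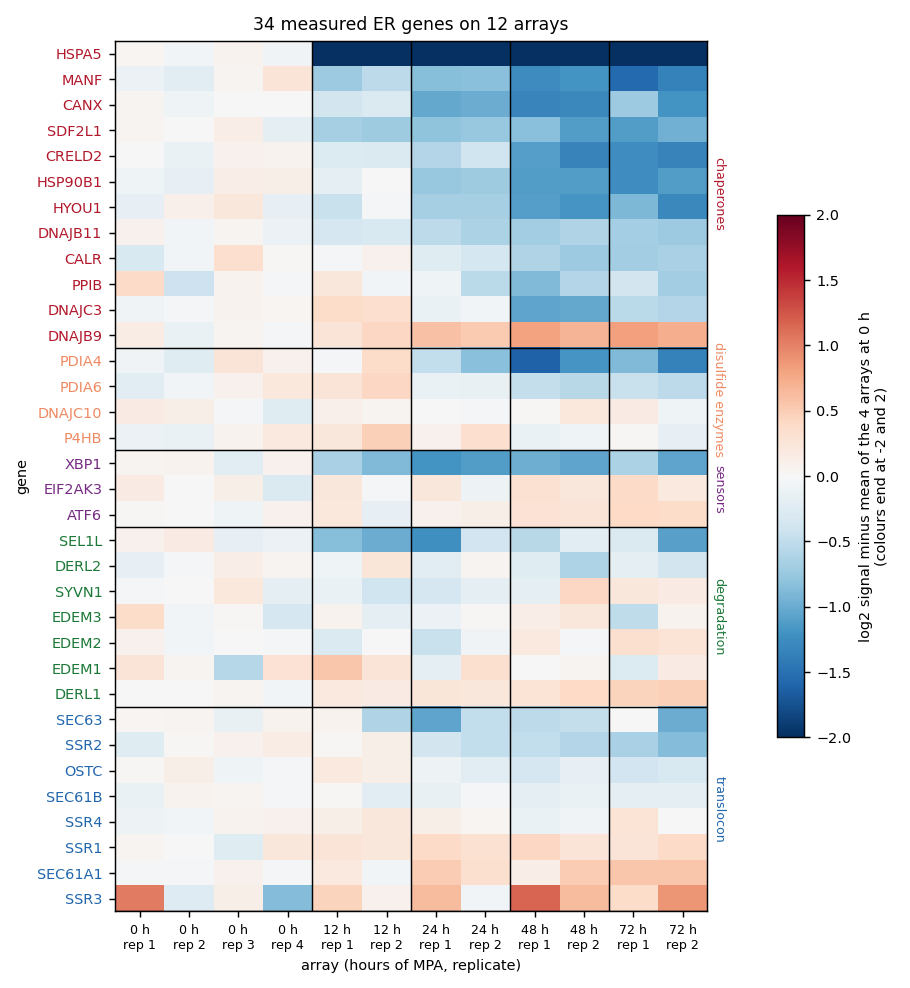
Heat map of the 34 measured genes (rows, by functional group) on the 12 arrays (columns, by hours of MPA and replicate). Colour is the log2 difference from the gene's mean at 0 h. Of the 12 chaperone rows 4 were called lower at 12 h and 11 at 48 h, where 17.9% and 22.8% of all genes were. The 11 include PPIB, whose probe was detected on 0 arrays at 48 h. HSPA5 is low on all 8 treated arrays, and the DNAJB9 row is higher. Under median scaling the mean rise of DNAJB9 remained past the threshold.

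HSPA5 fell most. On the 0 h arrays it read 10.11, 10.01, 10.14 and 10, and on the treated arrays 7.53, 7.66 (12 h), 7.35, 6.86 (24 h), 8.0, 7.56 (48 h) and 7.96, 7.98 (72 h). All 8 treated arrays lay far under the 4 untreated ones. This was a 5.56-fold lower level at 12 h (log2 fold change -2.47, SE 0.15, adjusted p = 4.1e-07) and 7.78-fold lower at 24 h (-2.96, SE 0.15, adjusted p = 2.5e-08). The level was then 4.88-fold lower at 48 h (-2.29, adjusted p = 2.3e-07) and 4.28-fold lower at 72 h (-2.1, adjusted p = 6.7e-07). Ranked from the largest fall among 10469 genes, HSPA5 stood at place 6 at 12 h, 3 at 24 h, 21 at 48 h and 30 at 72 h. HSPA5 was higher at 72 h than at 24 h (log2 0.86, adjusted p = 0.0051) and at 48 h than at 24 h (0.67, adjusted p = 0.03). Both calls were lost under median scaling (0.68 and 0.53, adjusted p = 0.075 and 0.22) and without replicate 2 of 24 h. Without that array the values were 0.62 (adjusted p = 0.063) and 0.43 (0.24), and without replicate 1 of 48 h the second was 0.46 (0.19).

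Of the other 11 chaperones and cofactors, 10 were lower in the mean of the 4 times, each by less than HSPA5. The median of the 12 chaperones and cofactors was -0.26 at 12 h, -0.62 at 24 h, -1.08 at 48 h and -1 at 72 h, with 4, 8, 11 and 10 genes called lower. Over all genes the shares called lower were 17.9%, 21.3%, 22.8% and 21.4%. The medians on single arrays ran from -0.07 to 0.07 at 0 h, -0.31 to -0.18 at 12 h, -0.65 to -0.62 at 24 h, -1.11 to -1.07 at 48 h and -1.03 to -0.81 at 72 h, so that no treated array overlapped the 0 h arrays. In the mean of the 4 times 11 of the 12 were lower and 1, DNAJB9, was higher, with 51.8% of all genes called (24.5% higher, 27.3% lower). These 11 and the 11 at 48 h include PPIB, whose dim probe was detected on 5 of 12 arrays. Its call in the mean was kept in 5 of 21 alternatives.

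HSP90B1 (GRP94), the ER Hsp90, read 14.24, 14.16, 14.45 and 14.44 at 0 h, then 14.14, 14.32 (12 h), 13.56, 13.61 (24 h), 13.2, 13.21 (48 h) and 13.07, 13.21 (72 h). The 12 h arrays overlapped those at 0 h, and from 24 h on they did not. Its level was 1.67-fold lower at 24 h (log2 -0.74, SE 0.12, adjusted p = 0.00039) and 2.26-fold lower at 72 h (-1.18, SE 0.12, adjusted p = 1.1e-05), against -0.09 at 12 h (adjusted p = 0.59).

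HYOU1 (GRP170), which exchanges the nucleotide of HSPA5, read 10.33, 10.6, 10.73 and 10.34 at 0 h, then 10.06, 10.46 (12 h), 9.84, 9.84 (24 h), 9.4, 9.32 (48 h) and 9.6, 9.21 (72 h). One 12 h array lay within the 0 h range and the other treated arrays lay below it. The fold change was -0.24 at 12 h (adjusted p = 0.28), then -0.66, -1.14 and -1.1, all called (adjusted p = 0.0057, 0.00011 and 0.00018). A second HYOU1 probe was also lower in the mean of the 4 times (-0.98, adjusted p = 2.9e-06 over probes).

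CANX (calnexin), the membrane lectin that holds glycoproteins during folding, read 10.22, 10.08, 10.17 and 10.16 at 0 h, then 9.8, 9.87 (12 h), 9.13, 9.17 (24 h), 8.84, 8.87 (48 h) and 9.43, 8.97 (72 h). No treated array reached the 0 h arrays. Its lowest level was at 48 h, 2.48-fold lower (log2 -1.31, SE 0.13, adjusted p = 6.3e-06), while the 12 h difference missed the threshold (-0.33, adjusted p = 0.065). Its soluble relative CALR (calreticulin) fell by 0.66 at 48 h and by 0.67 at 72 h (log2, both called), with 0.02 at 12 h and -0.29 at 24 h.

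SDF2L1 and DNAJB11, which act with HSPA5, were lower from 12 h on. SDF2L1 read 12.64, 12.58, 12.71 and 12.39 at 0 h, then 11.91, 11.87 (12 h), 11.78, 11.82 (24 h), 11.75, 11.47 (48 h) and 11.46, 11.62 (72 h), with no overlap. Its fold change went from -0.69 (SE 0.12, adjusted p = 0.0011) at 12 h to -1.04 (SE 0.12, adjusted p = 3.9e-05) at 72 h. DNAJB11, an Hsp40 partner of HSPA5, fell by 0.33 at 12 h, 0.57 at 24 h, 0.65 at 48 h and 0.7 at 72 h (log2, all called). Its 12 h call was lost without either 12 h array or without replicate 1 or 3 of 0 h (adjusted p from 0.059 to 0.12).

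MANF and CRELD2, 2 secreted ER stress proteins, were lowest at 72 h. MANF read 13.22, 13.1, 13.39 and 13.59 at 0 h, then 12.6, 12.81 (12 h), 12.48, 12.49 (24 h), 12.07, 12.14 (48 h) and 11.78, 11.98 (72 h). The treated arrays lay below all 0 h arrays, with a 1.54-fold lower level at 12 h (log2 -0.62, adjusted p = 0.0047) and 2.73-fold at 72 h (-1.45, adjusted p = 7.2e-06). CRELD2 read 11.89, 11.76, 11.99 and 11.97 at 0 h, then 11.62, 11.61 (12 h), 11.32, 11.5 (24 h), 10.8, 10.57 (48 h) and 10.65, 10.57 (72 h). It too overlapped nowhere, and its fold change was -0.29 at 12 h (adjusted p = 0.076), -0.49 at 24 h (0.0047), -1.22 at 48 h (5.6e-06) and -1.3 at 72 h (3.9e-06). The MANF call at 12 h was lost without replicate 1 of 12 h (-0.52, adjusted p = 0.058), and the CRELD2 call at 24 h without replicate 1 of 24 h (-0.41, adjusted p = 0.07).

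DNAJC3 (p58IPK), an HSPA5 cofactor that can also inhibit EIF2AK3, changed direction with time. It read 7.93, 7.96, 8.07 and 8.04 at 0 h, then 8.37, 8.33 (12 h), 7.86, 7.95 (24 h), 6.95, 6.97 (48 h) and 7.46, 7.42 (72 h). It was thus higher at 12 h (log2 0.35, SE 0.1, adjusted p = 0.017), not called at 24 h (-0.09, adjusted p = 0.48), and lower at 48 h (-1.04, SE 0.1, adjusted p = 6.2e-06) and 72 h (-0.56, adjusted p = 0.00077). The steps from 12 to 24 h (-0.44, adjusted p = 0.039) and from 24 to 48 h (-0.95, adjusted p = 0.00056) passed the test. The 12 h rise was lost without either 12 h array (adjusted p = 0.088 and 0.07) and under median scaling (0.38, adjusted p = 0.16), and the 12 to 24 h step without any of 5 single arrays (adjusted p from 0.059 to 0.21), namely replicate 2 of 0 h and all 4 arrays of 12 and 24 h.

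PPIB (cyclophilin B), a prolyl isomerase, was called lower at 48 h, where its probe was detected on 0 of 2 arrays, against 2 of 4 at 0 h. The fall there is given as at least 1.12-fold (adjusted p = 0.012), and without replicate 1 of 48 h it was not called (adjusted p = 0.12). Its call in the mean of the 4 times was lost in 16 of 21 alternatives, among them the omission of any of 7 single arrays (adjusted p from 0.081 to 0.19), which were replicates 1, 3 and 4 of 0 h, replicate 2 of 12, 24 and 72 h, and replicate 1 of 48 h.

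DNAJB9 (ERdj4), a cofactor of HSPA5 that also binds degradation substrates, rose and was singled out after its values were seen. It read 9.22, 8.94, 9.12 and 9.03 at 0 h, then 9.32, 9.49 (12 h), 9.66, 9.59 (24 h), 9.88, 9.75 (48 h) and 9.89, 9.79 (72 h). All 8 treated arrays lay above the 0 h arrays, as in 10.8% of all genes. Its fold change was 0.33, 0.55, 0.74 and 0.76 at the 4 times (adjusted p = 0.044, 0.0023, 0.00027 and 0.00023), and it was the 1 gene of the 34 called higher at all 4 times, where 7.71% of all genes were. Under median scaling the mean of the 4 times was 0.4 higher (adjusted p = 0.027), and the 4 single times no longer passed (adjusted p = 0.28, 0.11, 0.11 and 0.1). The 12 h call was lost in 15 of 23 alternatives, among them the omission of any 1 of the 12 arrays other than replicate 1 of 0 h (adjusted p from 0.051 to 0.28).

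**Figure D2:**
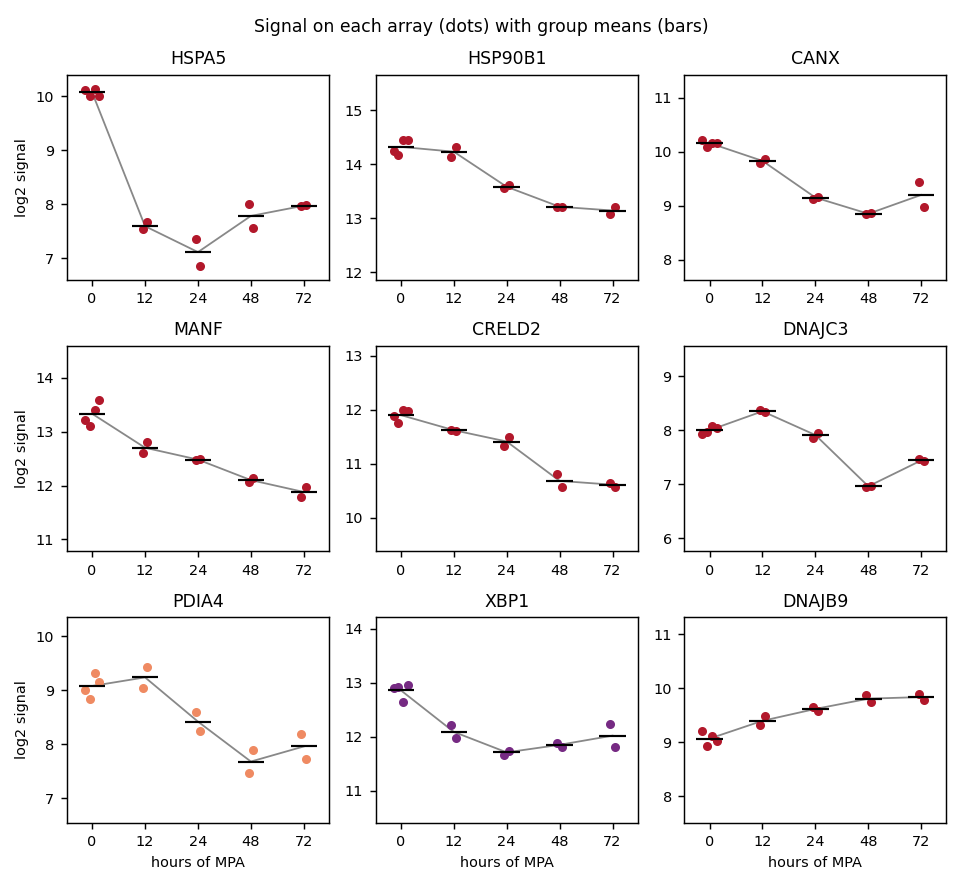
Log2 intensity of named genes at each time of MPA in hours, 1 point per array, with bars at group means joined by lines. Times are evenly spaced and each panel spans the same log2 range. HSPA5 drops by 12 h, whereas HSP90B1 overlaps its 0 h arrays at 12 h and lies below them from 24 h on.

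**Figure D3:**
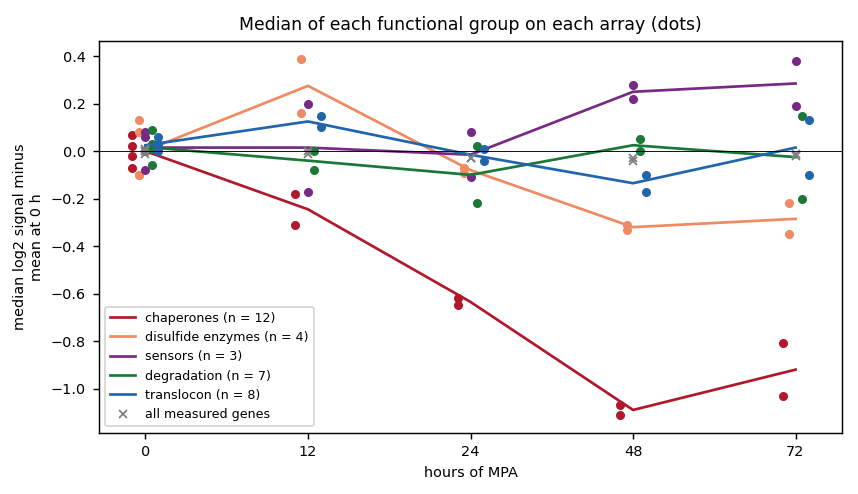
Median log2 difference from the 0 h mean over the genes of each functional group, 1 point per array, against hours of MPA. The chaperone medians reach -1.11 to -1.07 at 48 h, while the degradation medians lie between 0 and 0.05 at that time.

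The disulfide enzymes form and rearrange disulfide bonds in the ER. Of the 4 measured, 0 were called at 12 h, 1 was lower at 24 h, and 2 were lower at 48 h and at 72 h. The shares called were 0%, 25%, 50% and 50%, against 34.3%, 41.6%, 43.5% and 42.3% of all genes. PDIA4 (ERp72) read 9.01, 8.83, 9.33 and 9.16 at 0 h, then 9.04, 9.44 (12 h), 8.59, 8.24 (24 h), 7.46, 7.9 (48 h) and 8.19, 7.73 (72 h). From 24 h on it lay below all 0 h arrays, 2.64-fold lower at 48 h (log2 -1.4, SE 0.19, adjusted p = 0.00011) and 2.17-fold at 72 h (-1.12, SE 0.19, adjusted p = 0.00062). Its call at 24 h (-0.66, adjusted p = 0.016) was lost without replicate 2 of 24 h (-0.49, adjusted p = 0.17).

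PDIA6 (P5) read 10.94, 11.11, 11.26 and 11.38 at 0 h, then 11.42, 11.58 (12 h), 11.04, 11.02 (24 h), 10.7, 10.62 (48 h) and 10.72, 10.65 (72 h). The 12 h arrays were the highest and missed the threshold (0.33, adjusted p = 0.067), and the 48 h and 72 h arrays were below all 0 h arrays (-0.52 and -0.49, adjusted p = 0.0064 and 0.0087). These calls were lost without replicate 2 of 48 h (adjusted p = 0.055) and replicate 2 of 72 h (0.066). P4HB, the best known protein disulfide isomerase, and DNAJC10 (ERdj5), a reductase for degradation, passed the test at no time.

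XBP1 was the lower member of the sensor group. It read 12.91, 12.93, 12.65 and 12.95 at 0 h, then 12.21, 11.97 (12 h), 11.67, 11.74 (24 h), 11.88, 11.81 (48 h) and 12.23, 11.81 (72 h). The treated arrays lay below all 0 h arrays, by 1.71-fold at 12 h (log2 -0.77, SE 0.14, adjusted p = 0.0012), 2.22-fold at 24 h (-1.15, adjusted p = 3.5e-05), 2.02-fold at 48 h (-1.01, adjusted p = 1e-04) and 1.79-fold at 72 h (-0.84, adjusted p = 0.00048). Its second probe was lower too (-1.11 in the mean of the 4 times, adjusted p = 1.1e-06 over probes). Whether the probes cover both spliced forms was not tested.

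Of the 2 measured sensors, ATF6 was called at 72 h and EIF2AK3 at no time. ATF6 read 11.17, 11.14, 11.07 and 11.24 at 0 h, then 11.36, 10.99 (12 h), 11.24, 11.26 (24 h), 11.44, 11.4 (48 h) and 11.55, 11.51 (72 h). The 72 h rise was called (0.37, SE 0.12, adjusted p = 0.023), but under median scaling the difference was -0.05 (adjusted p = 0.87). Leaving out either 72 h array also ended the call (adjusted p = 0.11 and 0.082). EIF2AK3 read 7.13 to 7.59 at 0 h.

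The degradation genes recognise misfolded proteins, return them to the cytosol and mark them with ubiquitin. Of the 7 measured, 1 was called lower at each time, and 0, 0, 1 and 1 higher at 12, 24, 48 and 72 h. The shares called were 14.3%, 14.3%, 28.6% and 28.6%, under the 34.3%, 41.6%, 43.5% and 42.3% of all genes. The gene called lower was SEL1L at 12, 24 and 72 h. At 48 h it was DERL2, and SEL1L was not called (-0.38, adjusted p = 0.22). SEL1L, the scaffold of the ubiquitin ligase SYVN1 (HRD1), read 6.1, 6.18, 5.84 and 5.9 at 0 h, then 5.16, 5.01 (12 h), 4.79, 5.63 (24 h), 5.45, 5.79 (48 h) and 5.72, 4.93 (72 h). All treated arrays lay below the 0 h arrays, but the probe was dim, detected on 6 of 12 arrays and on 0 at 12 h. Its fall at 12 h is given as at least 1.28-fold (adjusted p = 0.011). At each later time 1 of 2 arrays detected it, so that those differences rest in part on signals not above background. The 12 h call was lost without replicate 2 of 12 h (adjusted p = 0.085), the 24 h call without replicate 1 of 24 h (-0.37, adjusted p = 0.3), and the 72 h call without replicate 2 of 72 h (-0.29, adjusted p = 0.45) or replicate 1 or 2 of 0 h (0.066 and 0.075).

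DERL1 (derlin-1), a channel component for misfolded proteins, read 10.19, 10.2, 10.24 and 10.13 at 0 h, then 10.38, 10.36 (12 h), 10.43, 10.42 (24 h), 10.46, 10.59 (48 h) and 10.64, 10.66 (72 h). All treated arrays lay above the 0 h arrays, and the rise was called at 48 h (0.33, adjusted p = 0.016) and 72 h (0.46, adjusted p = 0.0025), but under median scaling it was -0.03 at 48 h (adjusted p = 0.92) and 0.09 at 72 h (0.74). Without replicate 2 of 48 h the 48 h call was lost as well (0.27, adjusted p = 0.14). DERL2 gave opposite calls with its probes at 48 h, -0.44 (adjusted p = 0.03) with the brighter and 0.34 (adjusted p = 0.04 over probes) with the other, and has no settled direction. SYVN1 and the mannosidase-like EDEM1, EDEM2 and EDEM3, which trim glycans of misfolded proteins, were called at no time.

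The translocon passes nascent proteins into the ER. Of its 8 measured genes, 0 were called at 12 h, 2 were higher and 2 lower at 24 h, 1 was lower at 48 h, and 1 was higher and 2 lower at 72 h. The shares called were 0%, 50%, 12.5% and 37.5%, against 34.3%, 41.6%, 43.5% and 42.3% of all genes. SSR2, a subunit of the translocon-associated complex, fell by 0.43 at 24 h, 0.53 at 48 h and 0.76 at 72 h (log2, adjusted p = 0.017, 0.0052 and 0.00054). The 24 h call was lost without either 24 h array (adjusted p = 0.054 and 0.14). With the mean of a gene's probes the 24 h and 48 h calls were both lost (-0.27 and -0.32, adjusted p = 0.12 and 0.068). A second SSR2 probe gave -0.24 in the mean of the 4 times (adjusted p = 0.14 over probes). The channel SEC61A1 was higher at 24 h (0.41, adjusted p = 0.021) and 72 h (0.55, adjusted p = 0.0041), but under median scaling these were 0.25 (adjusted p = 0.38) and 0.12 (0.68), and without replicate 1 of 24 h the first was 0.32 (adjusted p = 0.18). SSR1 was called higher at 24 h (0.35, adjusted p = 0.048), against 0.19 (adjusted p = 0.5) under median scaling, and was not called without any 1 of the 12 arrays other than replicate 4 of 0 h (adjusted p from 0.052 to 0.22). OSTC, an oligosaccharyltransferase subunit, was called lower at 72 h (-0.35, adjusted p = 0.021), but not without either 72 h array or replicate 2 of 0 h (adjusted p from 0.053 to 0.12). Its second probe gave 0.07 at 72 h (adjusted p = 0.77 over probes), and the mean of its probes -0.14 (adjusted p = 0.37).

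SEC63, a partner of HSPA5 at the channel, read 5.81, 5.82, 5.62 and 5.84 at 0 h, then 5.84, 5.17 (12 h), 4.71, 5.28 (24 h), 5.24, 5.3 (48 h) and 5.78, 4.77 (72 h). Its dim probe was detected on 5 of 12 arrays, 0 of them at 24 h, where the fall is given as at least 1.25-fold (adjusted p = 0.027). That call was lost without replicate 1 of 24 h (-0.49, adjusted p = 0.27). SSR3 read 7.1, 5.8, 6.17 and 5.2 at 0 h, then 6.51, 6.15 (12 h), 6.69, 6.01 (24 h), 7.22, 6.7 (48 h) and 6.43, 6.95 (72 h). Its 0 h arrays span most of the treated values, and none of its differences was called (0.52 in the mean of the 4 times, SE 0.28, adjusted p = 0.14).

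**Figure D4:**
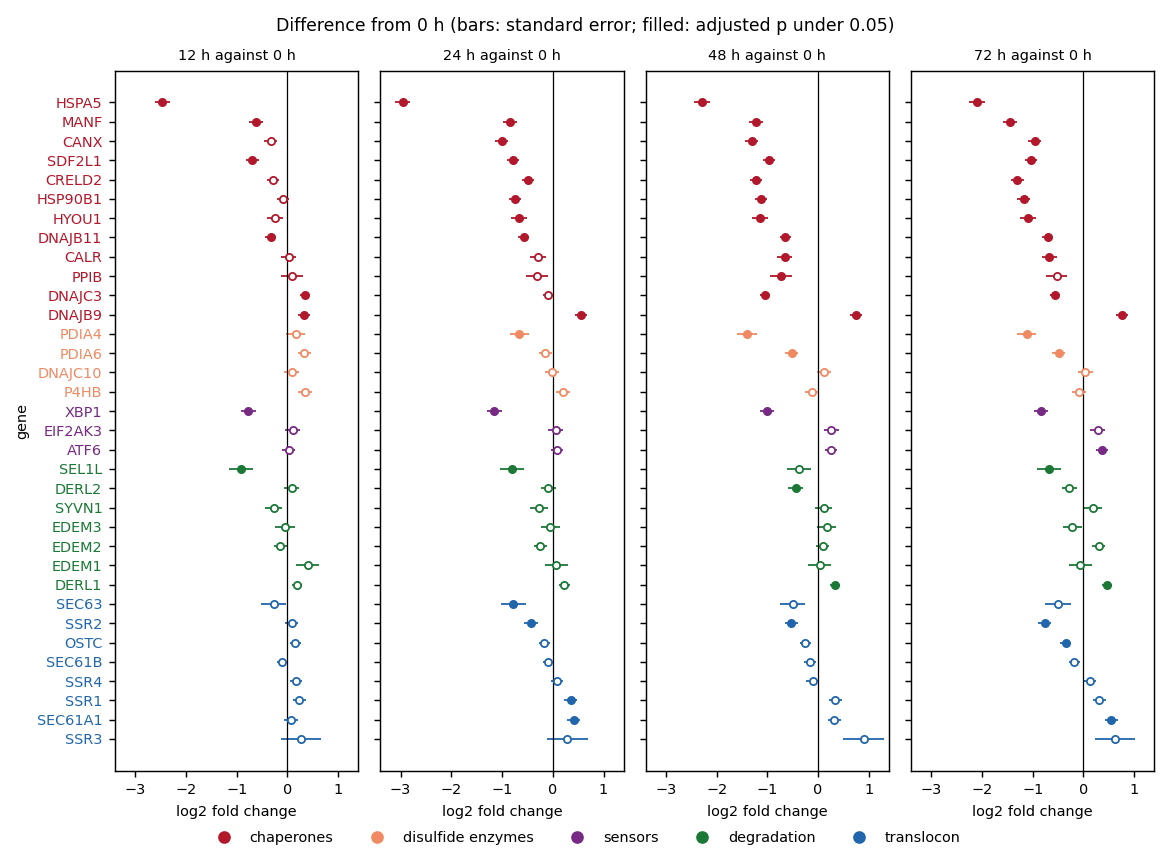
Log2 fold change against 0 h for the 34 genes at each time, with standard errors. Filled points have an adjusted p under 0.05, and colour marks the functional group. The fall of HSPA5 stands apart at every time. The rises of ATF6 at 72 h and of DERL1 at 48 h turn to -0.05 and -0.03 under median scaling.

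The genes with an exact ERSE or ERSE-II were compared with the other measured genes that have a window, as a description without a test. Of the 9 with an element, 3, 7, 9 and 9 were called lower at 12, 24, 48 and 72 h and 0 higher, with median log2 fold changes of -0.29, -0.74, -1.12 and -1.04. Of the 24 with neither, 3, 6, 7 and 7 were lower and 2, 3, 1 and 3 higher, with medians of 0.08, -0.09, -0.12 and -0.13. Over all genes 17.9%, 21.3%, 22.8% and 21.4% were lower and 16.4%, 20.4%, 20.7% and 21% higher. In the mean of the 4 times 8 of the 24 with neither were lower and 3 higher, where 27.3% and 24.5% of all genes were. MANF, PDIA4, DNAJC3 and DNAJB11 were among these 8 that fell without an exact element in the window. The group with an element holds 7 chaperones and cofactors, and element and function are therefore not separate. The 1 gene of the 9 that was not called in the mean of the 4 times was PDIA6.

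**Figure D5:**
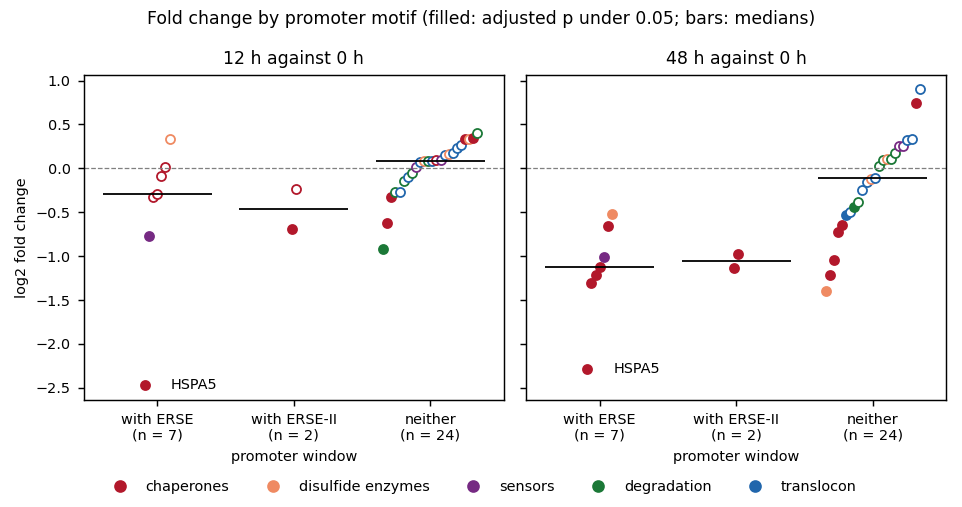
Log2 fold change at 12 h and 48 h of 33 measured genes by the element found in the promoter window, 1 point per gene, with bars at medians. Filled points have an adjusted p under 0.05, and colour marks the functional group. At 48 h all 9 genes with an element are filled and below 0, where 22.8% of all genes were called lower. The 24 with neither run from -1.4 to 0.9.

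Other genes of the pathway were taken from fixed lists. Their counts are for the mean of the 4 times, where 51.8% of all measured genes were called, 24.5% higher and 27.3% lower. Of 14 measured ER stress signalling genes of 18, 7 rose and 2 fell (64.3% called, median 0.23). DDIT3, the stress transcription factor CHOP, read 8.1, 8.33, 8.46 and 8.31 at 0 h, then 9.31, 9.4 (12 h), 10.04, 9.84 (24 h), 9.81, 9.7 (48 h) and 9.91, 9.95 (72 h). It was 2.07-fold higher at 12 h (log2 1.05, adjusted p = 4.4e-05) and 3.09-fold higher at 72 h (1.63, adjusted p = 8e-07), with no overlap. ATF4 was lower at 12 h (-0.73, SE 0.13, adjusted p = 0.0011) and not called at 24, 48 or 72 h (-0.31, -0.2 and 0.15). CREB3L2, an ATF6-like factor, fell by 0.91 and the stress gene NUPR1 rose by 0.9 in the mean of the 4 times (adjusted p = 1.8e-05 and 0.00051). The NUPR1 means were 4.92 at 0 h, then 5.39, 6.36, 6.35 and 5.17 at 12, 24, 48 and 72 h, highest at 24 and 48 h. Its 0 h level lay near that of the PDIA3 probe (mean 4.79), which was detected on 0 arrays, so the size of its rise is uncertain.

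Among 25 measured other ER folding and redox genes of 28, 4 rose and 5 fell (36% called, median -0.08), with DNAJB12 at -0.89, FKBP14 at 0.62 and RCN1 at -0.51 in the mean of the 4 times. Of 22 measured other degradation genes of 24, 3 rose and 5 fell (36.4%, median 0.01), with the extraction ATPase VCP at -0.6, its cofactor NPLOC4 at -0.69 and the ubiquitin ligase MARCHF6 at 0.59. Of 30 targeting, translocation and glycosylation genes of 33, 4 rose and 4 fell (26.7%, median -0.02), led by MAGT1 at 0.83, GET4 at -0.72 and SEC62 at -0.59. All 3 of these lists had a smaller share of called genes than the 51.8% of all genes.

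In the same mean of the 4 times, where 27.3% of all genes were lower, the lists of export genes and cytosolic chaperones were counted too. Of 25 measured ER export and retrieval genes of 28, 0 rose and 6 fell (24%, median -0.15), a share of lower genes near that of all genes, among them TMED10 at -0.59, the KDEL receptor KDELR1, which returns chaperones to the ER, at -0.35 and SURF4 at -0.34. Of 14 cytosolic chaperones, 0 rose and 10 fell (71.4%, median -0.41), with HSPA1A at -2.13 (SE 0.14, adjusted p = 1.1e-07), STIP1 at -0.68 and HSPA4 at -0.61. HSPA1A has a near-identical copy, HSPA1B, so its probe may not separate the 2. The HSPA1A means were 7.55 at 0 h, then 6.16, 5.11, 5.02 and 5.4 at 12, 24, 48 and 72 h. From 24 h on they lay near the level of undetected probes (PPIB mean 5.03 at 48 h, SEL1L 5.08 at 12 h). Detection of HSPA1A by array is not given here, so the size of its fall may be limited by background. The HSPA1B probe showed no such fall, with means of 10.36 at 0 h, then 10.42, 9.93, 10.97 and 10.28. Of 5 RT-PCR reference genes, GUSB rose by 0.34, and MRPL19 and IPO8 fell (-0.52 and -0.34; adjusted p = 0.0068, 0.00066 and 0.025).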

How the data were processed

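In all 12 Illumina HumanHT-12 arrays of AGS cells were analysed, 4 at 0 h and 2 each at 12, 24, 48 and 72 h of MPA. Each intensity deposited by the authors is the mean signal of a probe's beads, neither normalized between arrays nor background-subtracted. The detection score deposited beside each intensity is 1 minus the detection p. Their deposited log2 values come from lumi, version and settings not given in the sources used here, and served as an alternative.

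With limma 3.58.1 (statmod 1.5.0, R 4.3.3), intensities were corrected by normexp (negative controls from the detection p, offset 16) and quantile normalized on the log2 scale. The array holds 48803 probes, of which 28098 name 1 gene, 13 several and 20692 none. Through the gene identifier 28059 names were updated. A probe needed a detection p under 0.01 on 2 or more arrays, and the brightest such probe stood for its gene, giving 10469 genes. A 5-group model was fitted to all arrays, with Benjamini-Hochberg adjustment over all genes of a comparison and a threshold of 0.05. Where no array of a group detected a probe, the fold is a lower bound, set against the lowest signal of detected probes. The scripts were tested on simulated data.

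The genes and lists were chosen with earlier results of these data known. Values on every array are given for genes with a called 2-fold change at any time and for the 2 of each functional group with the largest mean change. From each further list up to 3 called genes with the largest mean change are named, and HSPA5, XBP1, ATF4 and DDIT3 always. Promoter windows are from RefSeq (GRCh38.p14). Alternatives changed the background correction, offset, normalization, detection filter, probe choice, spread estimate, samples and pairing.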

Additional observations from a re-analysis of the deposited data

Results flagged for a closer look

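On the 0 h arrays, XBP1 and SEC63 each had 1 array far from the other 3. For both it was the low replicate 3, with a gap of 0.889 of the group's range for XBP1 and 0.869 for SEC63. Chance gives about 1 in 20 groups of 4 such a gap.

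Several genes differed between times of treatment by a test of the difference itself (limma, adjusted over all genes). From 12 to 24 h the log2 difference was -0.64 for HSP90B1 (adjusted p = 0.016), -0.69 for CANX (0.015), -0.44 for DNAJC3 (0.039) and -0.83 for PDIA4 (0.045), where 6.91% of all genes were called. From 24 to 48 h HSPA5 rose by 0.67 (adjusted p = 0.03), and DNAJC3 and CRELD2 changed by -0.95 (0.00056) and -0.73 (0.0065), where 11.1% of all genes were called. From 24 to 72 h HSPA5 rose by 0.86 (adjusted p = 0.0051) and EDEM2 by 0.55 (0.026). In the same interval HSP90B1 changed by -0.44 (adjusted p = 0.042), DNAJC3 by -0.47 (0.014), CRELD2 by -0.8 (0.0016) and MANF by -0.6 (0.021), where 20.1% of all genes were called.

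Each of these steps other than DNAJC3 from 24 to 48 h and CRELD2 from 24 to 72 h was lost when some single array was left out. From 12 to 24 h the adjusted p was then 0.091 to 0.13 for HSP90B1 (replicate 2 of 12 h or either 24 h array), 0.051 to 0.095 for CANX (any 12 or 24 h array) and 0.055 to 0.28 for PDIA4 (any 12 or 24 h array, or replicate 1 or 4 of 0 h). From 24 to 48 h it was 0.058 to 0.067 for CRELD2 (replicate 2 of 24 or 48 h). From 24 to 72 h it was 0.054 to 0.19 for HSP90B1 (any 24, 48 or 72 h array), 0.051 to 0.1 for DNAJC3 (any 24 or 72 h array), 0.087 to 0.12 for MANF (either 24 h array or replicate 1 of 72 h) and 0.083 to 0.22 for EDEM2 (replicate 1 of 24 h or either 72 h array). The EDEM2 step was also lost under median scaling (0.34, adjusted p = 0.38) and with the replicate number as a block (0.054).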

How the results depend on the processing

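Of the genes called in each comparison, 3 of 8 at 12 h, 8 of 16 at 24 h, 12 of 18 at 48 h, 13 of 20 at 72 h and 13 of 20 in the mean of the 4 times kept their call under every alternative run. Under median scaling the called genes numbered 5 at 12 h, 2 from 12 to 24 h and 3 from 24 to 72 h, and ATF6 at 72 h (-0.05) and DERL1 at 48 h (-0.03) reversed. In the mean of the 4 times the calls split 1 higher and 19 lower under median scaling, against 4 and 16, with the median of all genes at -0.19. The share of all genes called under each alternative is not given here. A change in the number of called genes under any alternative therefore cannot be told from a change over all genes. The 12 to 24 h count of 4 became 2 without a detection filter, 1 with only the groups compared and 2 with the replicate number as a block. The 24 to 72 h count of 6 became 3 with only the groups compared. The 24 to 48 h count of 3 became 5 with the authors' log2 values, with the mean of probes and with an intensity trend. With 1 array left out, the counts ran from 4 to 9 at 12 h, 10 to 16 at 24 h, 15 to 19 at 48 h, 16 to 21 at 72 h, 18 to 20 in the mean, 0 to 4 from 12 to 24 h, 1 to 4 from 24 to 48 h and 2 to 6 from 24 to 72 h. The count was 4 at 12 h without either 12 h array, and 10 at 24 h without replicate 1 of 24 h. From 12 to 24 h it was 1 without replicate 1 of 12 h and 0 without replicate 2 of 12 h or either 24 h array. From 24 to 48 h it was 1 without replicate 2 of 24 h, and from 24 to 72 h it was 2 without either 24 h array or replicate 1 of 72 h, and 3 without replicate 2 of 72 h. The differences of replicate 1 from replicate 2 correlated weakly between times (from -0.14 to 0.15, 1 of 10 over 0.1). Such correlations cannot settle whether same-numbered arrays shared a culture, day or chip. With the replicate number as a block, PDIA4 at 24 h (-0.5, adjusted p = 0.12), PDIA6 at 48 and 72 h (0.063 and 0.08), DERL1 at 48 h (0.071), ATF6 at 72 h (0.071), SSR2 at 24 and 48 h (0.13 and 0.058) and CALR in the mean (-0.22, adjusted p = 0.15) were among the calls lost. Replicates 3 and 4 exist only at 0 h, so under the block these arrays add nothing to the differences from 0 h. Those differences then rest on replicates 1 and 2, and an effect of pairing cannot be told from the loss of untreated arrays. The mean of the 4 times was not run with only the groups compared, as it uses all groups. Dim probes limit SEL1L, SEC63 and PPIB, which have no value when detection on all arrays is required.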
